A study of Mus musculus with 16 samples.

Results

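THOC5-bound RNA was compared between primary mouse vascular smooth muscle cells that overexpressed a transgene and cells that did not. The sides follow the labels' groups and were proposed with earlier results of the same peaks known. The comparison takes 8 of the 16 samples of the series, all of them THOC5 immunoprecipitates (RIP-seq). The other 8 samples are inputs and were not analysed here. The transgene side holds 2 lists of peaks from cells overexpressing GFP (GFP OE, wild-type genotype per the labels) and 2 from cells overexpressing THOC5 (THOC5 OE), all 4 in osteogenic medium. The other side holds 2 lists from wild-type cells in growth medium (Ctrl) and 2 from wild-type cells in osteogenic medium (Pi). Medium was therefore not balanced: all transgene lists, but only the Pi lists of the other side, are from osteogenic medium. How either transgene was delivered, its promoter, its dose and its level are not stated in the labels. Nothing in the labels says that the 2 samples of a condition are separate cultures. Each p below therefore only counts the splits of these lists that lie at least as far apart as the sides. The splits treat the lists as independent, although each condition gave 2 of them and each side joins 2 conditions.

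The study asked how THOC5 shapes gene expression as smooth muscle cells turn towards a bone-like state under high phosphate, the process behind calcification of the vessel wall. THOC5 belongs to the THO complex, the core of the TREX machinery that is loaded on nascent RNA and joins transcription and splicing to the export of mRNA from the nucleus. Because the complex meets RNA while it is still being made and spliced, an immunoprecipitate can hold intron-containing RNA as well as mature mRNA. A peak is a stretch of transcript with more recovered RNA than its surroundings, and the peak counts below do not correct for how much of a transcript the cells made.

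In transgene-bearing cells the median span of bound genes was larger and the share of gene peaks in last exons smaller, in each of the 4 lists against each of the 4 others, although no measure of a whole list passed the adjusted threshold. The matrix gene Hmcn1 and the axonemal dynein gene Dnah7b carried the largest numbers of additional peaks, with means of 19.8 against 1.25 and 26.0 against 6.50 peaks per list. Ext1, Rusc2, gelsolin (Gsn) and the phosphate transporter gene Slc20a1 carried peaks in all 4 lists of cells without a transgene and in none of the others. Sets of 4 values are given in the order GFP OE 1, GFP OE 2, THOC5 OE 1 and THOC5 OE 2 for transgene-bearing cells, against Ctrl 1, Ctrl 2, Pi 1 and Pi 2.

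The 4 lists of transgene-bearing cells held 3711 (GFP OE 1), 2572 (GFP OE 2), 4618 (THOC5 OE 1) and 4240 (THOC5 OE 2) peaks, and the others 2603 (Ctrl 1), 4795 (Ctrl 2), 2666 (Pi 1) and 3793 (Pi 2). The peak numbers of the sides overlapped. The lists differ in another way that follows the sides exactly. The lowest peak score, in the unit of the authors' peak caller, was 6.31 to 12.6 in the transgene lists and 14.9 to 29.0 in the others, and the step between neighbouring scores was 0.282 to 0.350 against 0.726 to 1.58. Peaks on rRNA repeats numbered 0 in every transgene list, 0 and 1 in the Ctrl lists, and 17 and 28 in the Pi lists; without them the counts of sites and genes below were the same. The part of the score differences in the results below was not tested, and in each such list of bulk cells, fewer cells of a type and less RNA per cell cannot be told apart. The counts of sites and genes and the main measures are therefore also given with all lists cut to their 2572 best-scored peaks, the length of the shortest list, which evens out the number of peaks and not the depth. Of 9 smooth muscle markers, 5 carried a peak in at least 1 list (Acta2, Tagln, Smtn, Lmod1 and Mylk), with 5 to 11 peaks in all in the transgene lists and 7 to 14 in the others. In the transgene lists all of these peaks were in Mylk, and Acta2, Tagln, Smtn and Lmod1 carried none there. Mylk also held most of them in the other lists, with 6 to 11. The defining markers Myh11, Cnn1 and Myocd carried none in any list. Markers of other cells were at or near 0: of 7 endothelial, 6 fibroblast and 6 leukocyte markers, 1 each carried a peak (Flt1 with 3 and Csf1r with 1 in THOC5 OE 2, Pdgfra with 1 in Pi 1). Thoc5 itself carried 1 peak, in Ctrl 2, and none in the other lists, THOC5 OE included, so the lists give no check of its overexpression.

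Peaks of all lists were merged into 12362 sites, joining peaks that share at least 1 base. Of these, 108 (0.874%) were present in all 4 transgene lists and absent from all 4 others, and 35 (0.283%) showed the opposite pattern. These sites were chosen by the values that would be compared, so the counts are a description and no test was made of them. Just outside the rule lay 341 sites found in 3 transgene lists and no other list, 139 found in all 4 transgene lists and 1 other, 185 found in 3 lists without a transgene and no transgene list, and 31 found in all 4 lists without a transgene and 1 transgene list. In contrast, 324 sites were present in all 8 lists, so sites common to every condition outnumbered those that set the sides apart. In the cut lists, 63 of 8315 sites (0.758%) and 35 of 8315 (0.421%) met the 2 rules. Of the 108 transgene sites 30 were called again after the cut, and of the 35 others 29.

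**Figure D1:**
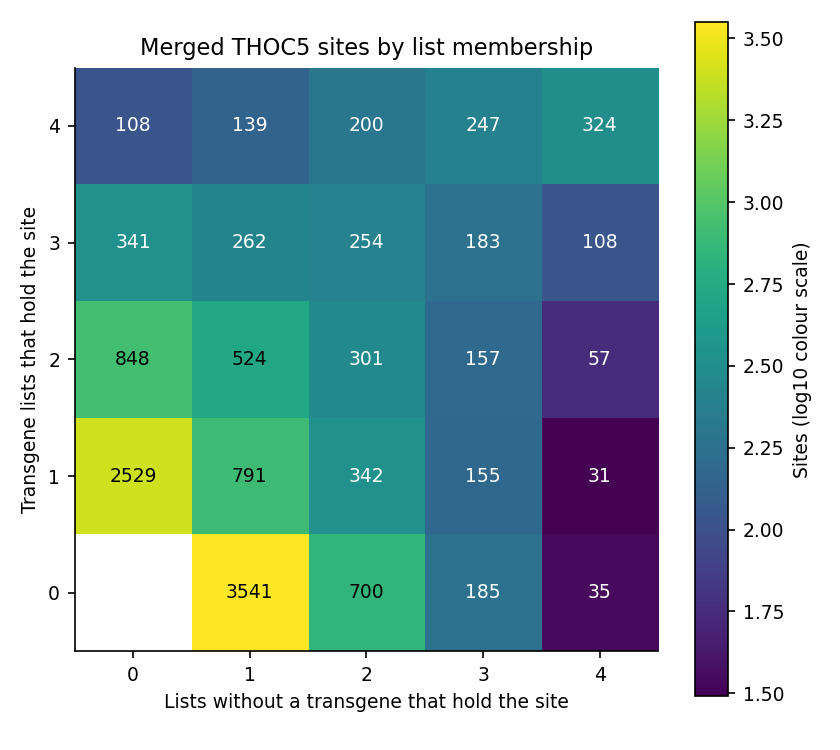
Number of merged sites by how many of the 4 transgene lists (vertical axis) and how many of the 4 lists without a transgene (horizontal axis) hold them, with colour on a log10 scale. The corner of 108 sites at the upper left and that of 35 at the lower right are the one-sided sites, and the 324 sites at the upper right are in every list.

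The one-sided sites of transgene-bearing cells were mostly weak peaks of their lists, with a few strong ones. Percentiles rank peaks by score within their own list, 100 being the strongest. A site's lowest percentile over its 4 lists had a median of 18.1 for the transgene sites and 47.9 for the others, and it was under 25 for 63 of the 108 against 5 of the 35. It was over 75 for 10 of the transgene sites and 12 of the others. Most sites lay in genes that the other side also bound elsewhere. Of 98 transgene sites inside a gene, 79 lay in a gene with a peak in at least 1 list without a transgene, and 43 in a gene bound in all 4. For the other direction this held for 24 and 13 of 34. A site on one side with a peak of the other side within 1 kb occurred 6 times and 2 times.

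Among the 10 strongest transgene sites, the best ranked lay in exon 3 of 36 of Kmt2a, a histone H3 lysine 4 methyltransferase (chr9:44847652-44848197, mm10), at percentiles of 99.1, 99.3, 99.4 and 99.5 in GFP OE 1, GFP OE 2, THOC5 OE 1 and THOC5 OE 2. All 4 lists without a transgene had a peak within 1 kb of it, the nearest 486 bases away, at percentiles of 98.8 to 99.1, so every list bound Kmt2a strongly beside this site. Bmp1, which encodes a protease that processes procollagen, had its site in exon 16 of 20 (chr14:70486323-70486936) at percentiles of 98.8 to 99.4. The annotation puts this site in its class of non-coding transcripts, although Bmp1 encodes a protein. The nearest peak of the other side was 5341 bases away. Firre, a long noncoding RNA that organises nuclear architecture, followed with exon 18 of 20 (chrX:50569491-50570053, 98.1 to 98.4). Coding exons held the sites of the transcriptional regulator Nfx1 (exon 2 of 24, 96.5 to 97.5), of Parg (exon 3 of 18, 91.8 to 94.5), which degrades poly(ADP-ribose), and of Polr1a (exon 11 of 34, 80.4 to 82.5), the largest subunit of RNA polymerase I. Thoc2, the scaffold subunit of the same complex, had one in exon 15 of 39 (chrX:41843873-41844573) at percentiles of 83.4, 82.4, 82.2 and 81.7. Atp9b (intron 18 of 29), Fam193a (exon 19 of 21) and a site named for Mir7026, which lies within the chromatin gene Ep400, complete the 10.

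Among the 10 strongest sites absent from every transgene list, Ubr4, a large ubiquitin ligase, held the first in intron 31 of 105 (chr4:139416760-139417313), at percentiles of 98.3, 98.7, 98.9 and 98.8 in Ctrl 1, Ctrl 2, Pi 1 and Pi 2. Ext1, a polymerase of heparan sulfate chains, carried a single peak in exon 1 of 11 (chr15:53344911-53345714) in each of these lists, at 96.9 to 97.9, and none in any transgene list. Rusc2 did the same in exon 2 of 12 (chr4:43415486-43416039) at 94.7 to 97.7. Lama5, a laminin chain of basement membranes, had its site in intron 2 of 78 (92.2 to 93.7), the GABA receptor gene Gabbr1 in intron 7 of 22 on a repeat (91.1 to 94.6), and the ubiquitin ligase Herc2 in intron 41 of 92 (85.4 to 89.8). A site that the annotation names for the transcript end of Srebf1 lies within Rai1 (88.0 to 91.8). Sema4g (3' UTR), Yme1l1 (intron 14 of 18) and Ankrd10 (exon 7 of 7) complete the list. Each of these 10, and each of the 10 on the transgene side, was called again in the cut lists.

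In whole lists, first introns and CpG islands set the placing of the sites apart, as was seen only after the values were known. Intron 1 held 18 of the 108 transgene sites (16.7%), 0 of the 35 others, 8 of the 324 common sites (2.47%) and 5.50% of all sites. CpG islands, stretches rich in the dinucleotide CG that mark many promoters, held 10 (9.26%), 0, 5 (1.54%) and 3.35%, and all 10 were in intron 1. Promoters held 8 transgene sites (7.41%) and 1 of the others, against 2.14% of all sites. Introns of any number held 64 of the 108 sites (59.3%) and coding exons 27 (25%). For the 35 the numbers were 21 (60%) and 7 (20%). The 10 sites at CpG islands of first introns were those of Kidins220, Ccp110, Prpf4b, Stag1, Copb1, Tdrd3, Vac14, Tango6, Dop1a and Dmxl2. Of these 10, only those of Kidins220, Ccp110, Prpf4b and Vac14 were called again in the cut lists. Among the transgene sites of first introns outside CpG islands, only that of Fam214a was called again. Kidins220, a membrane scaffold of neurotrophin signalling, had the strongest (chr12:24974955-24975493), at percentiles of 60.2, 63.5, 71.2 and 71.0. That of Copb1, a subunit of the COPI coat of Golgi vesicles (chr7:114254009-114254557), was at 30.0, 33.0, 38.4 and 42.8, and no list without a transgene had a peak in Copb1. The share of all peaks of a list on CpG islands was 2.64%, 4.78%, 4.63% and 4.01% in the transgene lists and 2.07% to 2.93% in the others, so GFP OE 1 lay among the lists without a transgene.

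The promoter windows of 3 genes are printed, out of those that a one-sided site covers in part or whole. Transgene sites also cover bases of the windows of Dock9 (280), Tango6 (39), 1700065D16Rik, 4930573O16Rik and A730020E08Rik (300 each), which are not printed. Of the 10 sites at CpG islands of first introns, those of Kidins220, Tango6 and Dmxl2 reach the window of their own gene, and the other 7 do not. Each window runs from 250 bases before to 50 bases after the annotated start, 5' to 3' on the gene's strand, from RefSeq (GRCm38.p6, the same build as mm10), and the bases under a one-sided site are in capitals. Kidins220 (chr12:24974682-24974981, plus strand) and Dmxl2 (chr9:54501577-54501876, minus strand), which encodes a regulator of the vesicular proton pump, have transgene sites that start within the window and run on into intron 1. Dysf, the membrane repair gene dysferlin (chr6:84008348-84008647, plus strand), has the promoter site that is absent from every transgene list.
Kidins220: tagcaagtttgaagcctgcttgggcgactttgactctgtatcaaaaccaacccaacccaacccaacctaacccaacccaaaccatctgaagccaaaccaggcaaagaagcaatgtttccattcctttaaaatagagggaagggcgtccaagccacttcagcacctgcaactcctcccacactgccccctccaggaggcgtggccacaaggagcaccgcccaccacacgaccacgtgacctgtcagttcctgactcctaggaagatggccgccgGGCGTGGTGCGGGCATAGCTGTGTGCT
Dmxl2: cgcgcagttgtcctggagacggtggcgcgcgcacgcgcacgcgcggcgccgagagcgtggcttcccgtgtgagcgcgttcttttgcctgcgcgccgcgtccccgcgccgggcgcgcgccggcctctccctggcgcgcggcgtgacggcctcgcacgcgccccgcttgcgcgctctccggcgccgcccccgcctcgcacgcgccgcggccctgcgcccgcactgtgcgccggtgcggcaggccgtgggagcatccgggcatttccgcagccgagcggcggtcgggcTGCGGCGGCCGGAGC
Dysf: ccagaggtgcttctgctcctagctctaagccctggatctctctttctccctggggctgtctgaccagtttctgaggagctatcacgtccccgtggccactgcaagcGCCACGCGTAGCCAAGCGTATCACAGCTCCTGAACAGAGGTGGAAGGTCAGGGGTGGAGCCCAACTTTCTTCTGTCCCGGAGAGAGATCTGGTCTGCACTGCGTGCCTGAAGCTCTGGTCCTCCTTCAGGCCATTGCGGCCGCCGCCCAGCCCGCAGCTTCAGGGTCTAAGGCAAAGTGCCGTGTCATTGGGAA
The site covers the last 27 bases of the Kidins220 window, the last 15 of that of Dmxl2 and 194 of that of Dysf. The dinucleotide CG, which reads the same on both strands, occurs 10, 63 and 13 times in the 3 windows, and its median over 32851 promoter windows of this length is 7. As many or more occur in 43.5%, 0.0304% and 37.9% of those windows. In the windows not printed, CG occurs 41 (Dock9), 12 (Tango6), 32 (1700065D16Rik), 6 (4930573O16Rik) and 35 (A730020E08Rik) times. The Dysf site lay at percentiles of 30.9, 56.3, 48.2 and 56.0 in Ctrl 1, Ctrl 2, Pi 1 and Pi 2.

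Genes differed between the sides in how many peaks they carried. Over 4050 genes with a peak in any list, 74 (1.83%) had more peaks in each transgene list than in any other list, and 34 (0.84%) had fewer in each. The sides were defined with these counts known, so they too are a description without a test. Of the 74 genes, 44 had no peak at all in the lists without a transgene, and of the 34 genes, 28 had none in the transgene lists. In the cut lists the counts were 39 (1.31%) and 27 (0.91%) of 2968 genes, with 12 of the 74 and 24 of the 34 called again. The 74 genes with more peaks in transgene-bearing cells thus rested largely on peaks below the cut, and the 34 with fewer did not. The cut left the shortest list, GFP OE 2, whole. Its lowest kept score was 12.6, against 26.9 to 51.6 in the other lists.

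**Figure D2:**
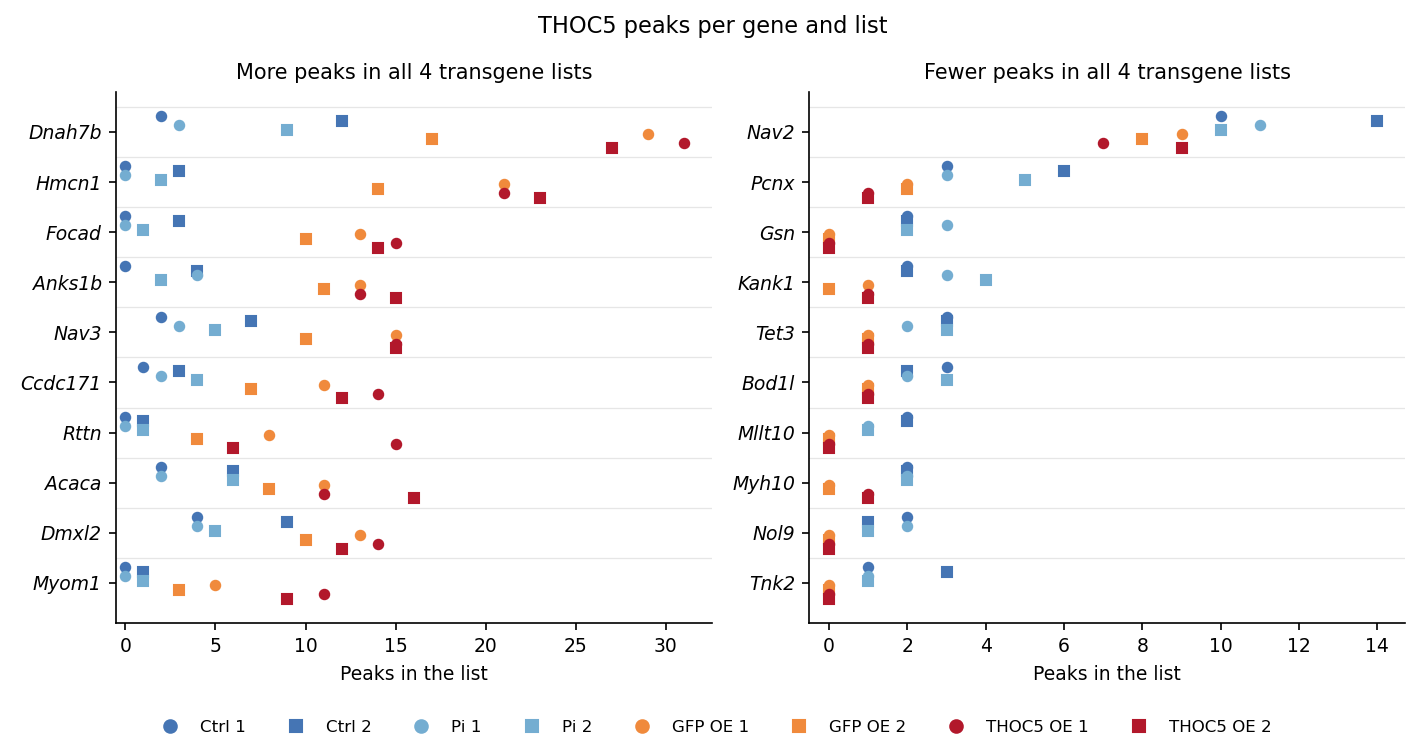
Peaks per list (horizontal axis) in the 10 genes with the largest difference in each direction, 1 point per list. The orange and red points of the transgene lists lie to the right of all blue points in the left panel and to the left of them in the right panel, with Dnah7b from 17 to 31 against 2 to 12 and Nav2 from 7 to 9 against 10 to 14.

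Dnah7b, an axonemal dynein heavy chain of motile cilia (chr1:46066071-46373551), carried 29, 17, 31 and 27 peaks in GFP OE 1, GFP OE 2, THOC5 OE 1 and THOC5 OE 2, and 2, 12, 3 and 9 in Ctrl 1, Ctrl 2, Pi 1 and Pi 2. The mean was 26.0 ± 6.22 (SD, n = 4) against 6.50 ± 4.80 (SD, n = 4). Introns held 65 of its peaks in the transgene lists and 12 in the others, and exons or UTRs 39 and 14. In the cut lists it kept 9, 17, 6 and 6 peaks against 2, 1, 3 and 2. Hmcn1, which encodes the matrix protein hemicentin (chr1:150562500-150993652), carried 21, 14, 21 and 23 peaks against 0, 3, 0 and 2, a mean of 19.8 ± 3.95 against 1.25 ± 1.50. After the cut it had 10, 14, 7 and 11 peaks in the transgene lists and none in the others. Its strongest peak reached percentiles of 49.6, 54.1, 62.4 and 63.1 in the transgene lists and at most 9.9 elsewhere.

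Focad, which encodes focadhesin, carried 13, 10, 15 and 14 peaks against 0, 3, 0 and 1, but after the cut only GFP OE 2, with 10, and THOC5 OE 2, with 4, kept any. Anks1b, a scaffold protein gene spanning 1100386 bases, carried 13, 11, 13 and 15 against 0, 4, 4 and 2, and after the cut 6, 11, 7 and 9 against 0, 0, 4 and 1. Acaca, which encodes acetyl-CoA carboxylase of fatty acid synthesis, carried 11, 8, 11 and 16 peaks against 2, 6, 2 and 6 and was called again after the cut. Nav3 (15, 10, 15 and 15 against 2, 7, 3 and 5) encodes a neuron navigator that binds microtubules. Dmxl2 carried 13, 10, 14 and 12 peaks against 4, 9, 4 and 5, Ccdc171 11, 7, 14 and 12 against 1, 3, 2 and 4, and Rttn, a centriole protein, 8, 4, 15 and 6 against 0, 1, 0 and 1. Myom1, a structural protein of the sarcomere, carried 5, 3, 11 and 9 against 0, 1, 0 and 1. Focad, Nav3, Ccdc171, Rttn, Dmxl2 and Myom1 met the rule in whole lists and not in cut lists.

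Genes with fewer peaks in transgene-bearing cells had small counts. Nav2, the relative of Nav3, went the other way with 9, 8, 7 and 9 peaks in the transgene lists and 10, 14, 11 and 10 in the others, and the same numbers after the cut. Its exon peaks numbered 22 on each side, and its intron peaks 11 against 23. Gsn, gelsolin, which severs and caps actin filaments (chr2:35256359-35307902), carried no peak in the transgene lists and 2, 2, 3 and 2 in Ctrl 1, Ctrl 2, Pi 1 and Pi 2, all in introns. Tet3, which oxidises methylated cytosine in DNA, carried 1 peak in each transgene list and 3, 3, 2 and 3 in the others. Myh10, the heavy chain of nonmuscle myosin IIB, carried 0, 0, 1 and 1 against 2 in each. Kank1, a regulator of actin at adhesions, carried 1, 0, 1 and 1 against 2, 2, 3 and 4. Pcnx carried 2, 2, 1 and 1 against 3, 6, 3 and 5, Bod1l 1 in each against 3, 2, 2 and 3, and Mllt10, Nol9 and Tnk2 none against 1 to 3. All of these but Pcnx, Bod1l and Nol9 met the rule in the cut lists too. Csmd1, a complement regulator named because earlier results of these data had drawn attention to it, met the rule only after the cut, with 0, 0, 2 and 1 peaks against 19, 18, 19 and 15. In the whole lists THOC5 OE 1 and THOC5 OE 2 held 28 and 27 peaks in it, as many as the lists without a transgene (19, 31, 19 and 28), and GFP OE 1 and GFP OE 2 held 4 and 0. Its strongest peak lay at percentiles of 17.8 in GFP OE 1, 47.4 in THOC5 OE 1, 41.3 in THOC5 OE 2 and 68.9 to 84.4 in the others.

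**Figure D3:**
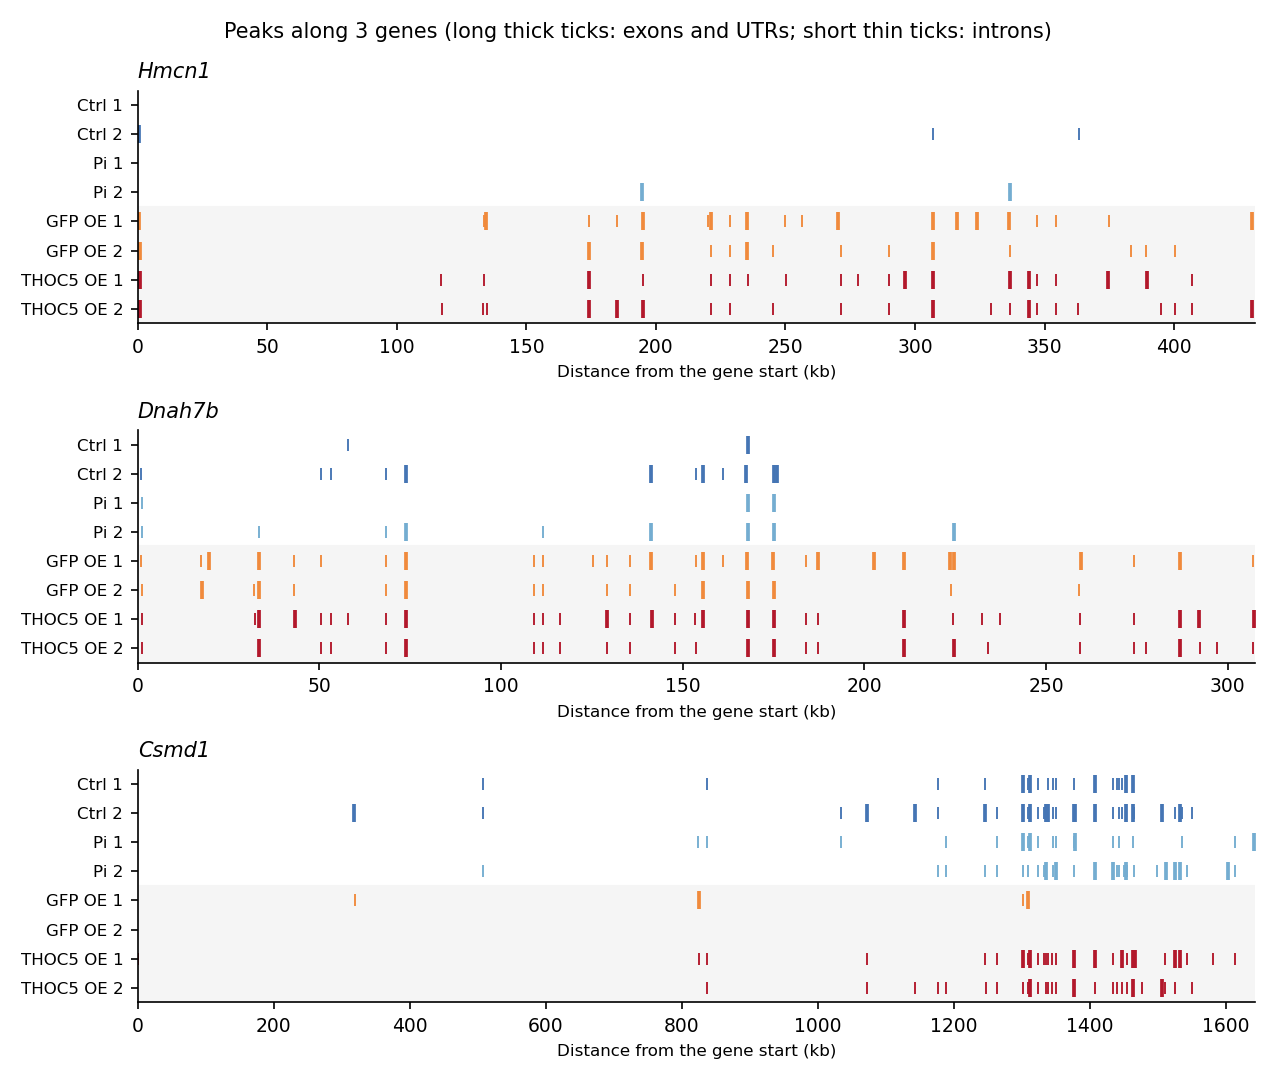
Position of each peak along Hmcn1, Dnah7b and Csmd1, in kb from the gene start, with 1 row per list and the transgene lists shaded. In Hmcn1 the transgene lists hold 14 to 23 peaks where the others hold 0 to 3, in Dnah7b they hold 17 to 31 where the others hold 2 to 12, and in Csmd1 the GFP OE lists hold 4 and 0 peaks while the THOC5 OE lists hold 28 and 27.

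Within the genes that had more peaks in transgene-bearing cells, exons and UTRs held 490 peaks and introns 741 in the transgene lists, an exon share of 39.8%. The lists without a transgene had 121 and 97 in the same genes, a share of 55.5%. In the 34 genes with fewer peaks the shares were 63.5% (33 of exons, 19 of introns) and 46.7% (107 and 122). In both sets the side with more peaks had the larger intron share. Exon and intron are throughout the annotation's class of each peak, which could differ between lists at nearly the same place. In Hmcn1, a peak 194.9 kb from the gene start was classed as exon in GFP OE 1 and as intron in THOC5 OE 1. The genes were chosen by these same peaks, so the shares are a description and were not tested. The 33 and 19 come from the few of the 34 genes that kept a peak in transgene lists. The 121 and 97 leave out the 44 of the 74 genes that had no peak in the lists without a transgene, so the 2 shares cover different genes. The genes were also unlike in size: the median span was 123805 bases for the 74 genes, 60706.5 for the 34 and 46755.5 for all bound genes, and 31.1%, 5.88% and 9.16% spanned over 200 kb. A longer gene offers more room for peaks, and the share of genes in the 74 went from 0.572% of bound genes up to 20 kb to 6.31% of those over 400 kb. For the 34 the share rose from 0.229% of bound genes up to 20 kb to 1.27% of those of 100 to 200 kb. It was 0.385% at 200 to 400 kb and 0.901% over 400 kb, each of these classes holding 1 of the 34.

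The lists as wholes gave measures that could be set against all 70 splits of 8 lists into 4 and 4, where the smallest two-sided p is 0.0286. The sides were proposed with earlier results of the same peaks known, so each p describes how far the sides lie apart and is no independent evidence of a difference. Of 11 measures, 3 did not overlap between the sides, and none passed 0.05 after Benjamini-Hochberg adjustment over the 11. The median span of the bound genes was 80156, 81318, 82327 and 82554 bases in GFP OE 1, GFP OE 2, THOC5 OE 1 and THOC5 OE 2, and 66235, 58620, 64008 and 60695.5 in Ctrl 1, Ctrl 2, Pi 1 and Pi 2. The mean was higher by 19199 bases in the transgene lists (81589 ± 1096 against 62389.6 ± 3390.5, SD, n = 4 each, exact permutation p = 0.0286, adjusted 0.105). Genes over 200 kb took 31.7%, 29.5%, 32.9% and 32.1% of peaks against 24.2%, 25.4%, 23.1% and 25.3%, a difference of 7.07 percentage points (31.6 ± 1.43 against 24.5 ± 1.04, SD, n = 4 each, exact permutation p = 0.0286, adjusted 0.105). The last exon of a gene, which holds most of the 3' UTR, took 10.1%, 8.45%, 8.75% and 9.36% of gene peaks against 11.5%, 11.9%, 12.4% and 13.0%, a difference of -3.04 points (exact permutation p = 0.0286, adjusted 0.105). In all 3 measures the 4 transgene lists stood on one side of the 4 others.

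**Figure D4:**
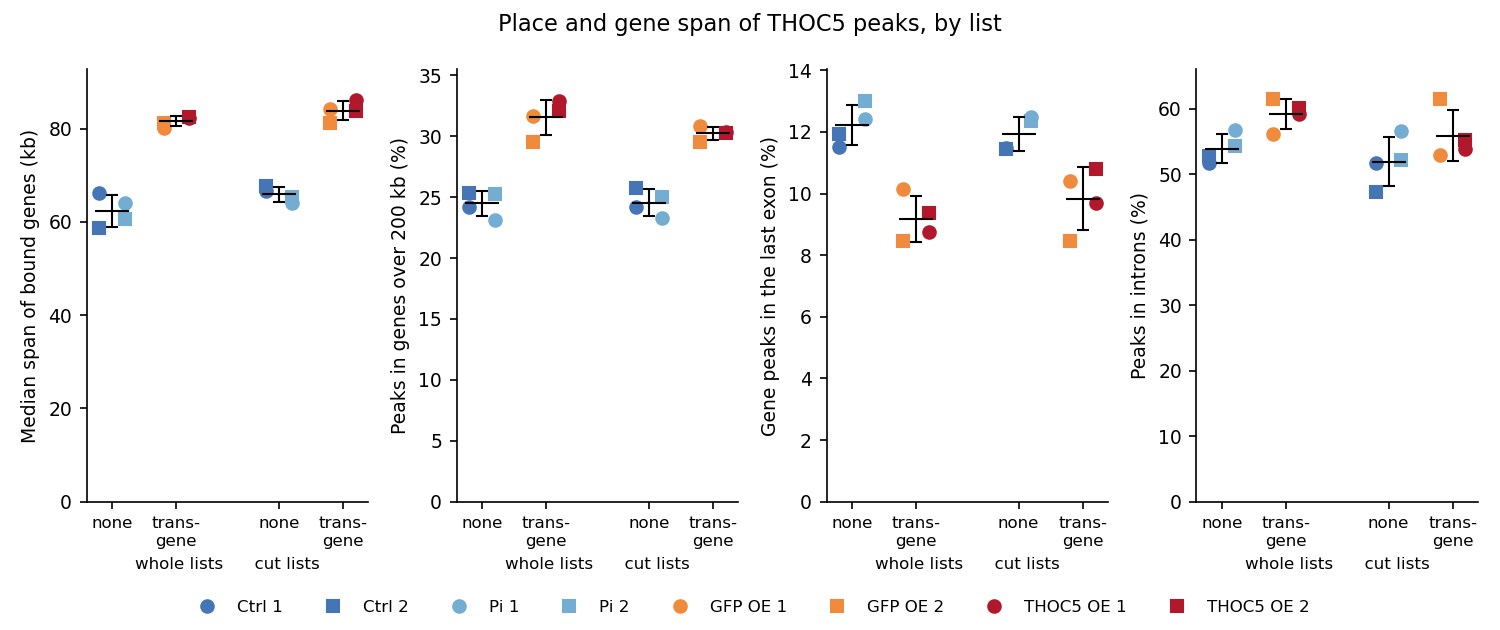
Median span of bound genes, share of peaks in genes over 200 kb, share of gene peaks in the last exon and share of peaks in introns, 1 point per list, for whole lists and for lists cut to 2572 peaks, with black lines for the mean and SD of the 4 lists of a side. The sides do not overlap in the first 3 panels before or after the cut, and they overlap in the intron panel.

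After the cut these 3 measures still did not overlap: the median span was 81318 to 86083 bases against 63978 to 67673, the share in genes over 200 kb 29.5% to 30.8% against 23.3% to 25.8%, and that of the last exon 8.45% to 10.8% against 11.5% to 12.5% (exact permutation p = 0.0286 and adjusted 0.105 for each). With the Ctrl lists left out, so that all 6 lists are from osteogenic medium, the differences were 19237 bases, 7.36 points and -3.54 points, and the sides again did not overlap, but the smallest p of that design is 0.0667. Introns took 56.0%, 61.5%, 59.2% and 60.1% of peaks in the transgene lists and 51.6%, 52.8%, 56.8% and 54.2% in the others (difference 5.37 points, exact permutation p = 0.0571, adjusted 0.105), with Pi 1 above GFP OE 1. Exons and UTRs mirrored this at 39.3%, 32.2%, 35.1% and 33.9% against 43.4%, 41.6%, 37.5% and 39.3% (exact permutation p = 0.0571, adjusted 0.105). The intron difference was smaller after the cut, at 3.98 points (exact permutation p = 0.229, adjusted 0.419). Intron 1 took 4.38%, 7.56%, 7.06% and 7.10% of gene peaks against 2.80%, 4.12%, 5.21% and 4.45% (exact permutation p = 0.0857, adjusted 0.135), with GFP OE 1 inside the range of the other side. Peaks per bound gene were 2.54, 2.01, 2.69 and 2.41 against 1.98, 2.23, 1.67 and 1.91 (exact permutation p = 0.0571, adjusted 0.105). For transcript ends (0.897% against 1.10% on average), promoters (2.08% against 1.88%), intergenic peaks (1.44% against 1.20%) and repeats among intron peaks (13.8% against 13.6%), exact permutation p was 0.171 to 0.943.

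Split by the span of the gene, the sides were furthest apart in short genes. Genes of up to 20 kb took 3.16%, 3.56%, 2.82% and 2.97% of gene peaks in the transgene lists and 6.82%, 7.96%, 9.42% and 9.14% in the others. Genes of 20 to 50 kb took 12.0% to 13.9% against 17.3% to 18.8%. The order was turned from 100 kb upwards. The classes of 100 to 200 kb (26.8% to 28.3% against 23.8% to 25.9%), 200 to 400 kb (18.6% to 20.5% against 14.6% to 16.2%) and over 400 kb (12.1% to 13.8% against 9.46% to 10.2%) took more in each transgene list. The sides did not overlap in any of these 5 classes, in whole or in cut lists, and they overlapped in genes of 50 to 100 kb. In the cut lists genes of up to 20 kb took 2.19% to 3.56% against 5.91% to 9.42%. These classes were examined after the spans were known to differ and were not tested.

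**Figure D5:**
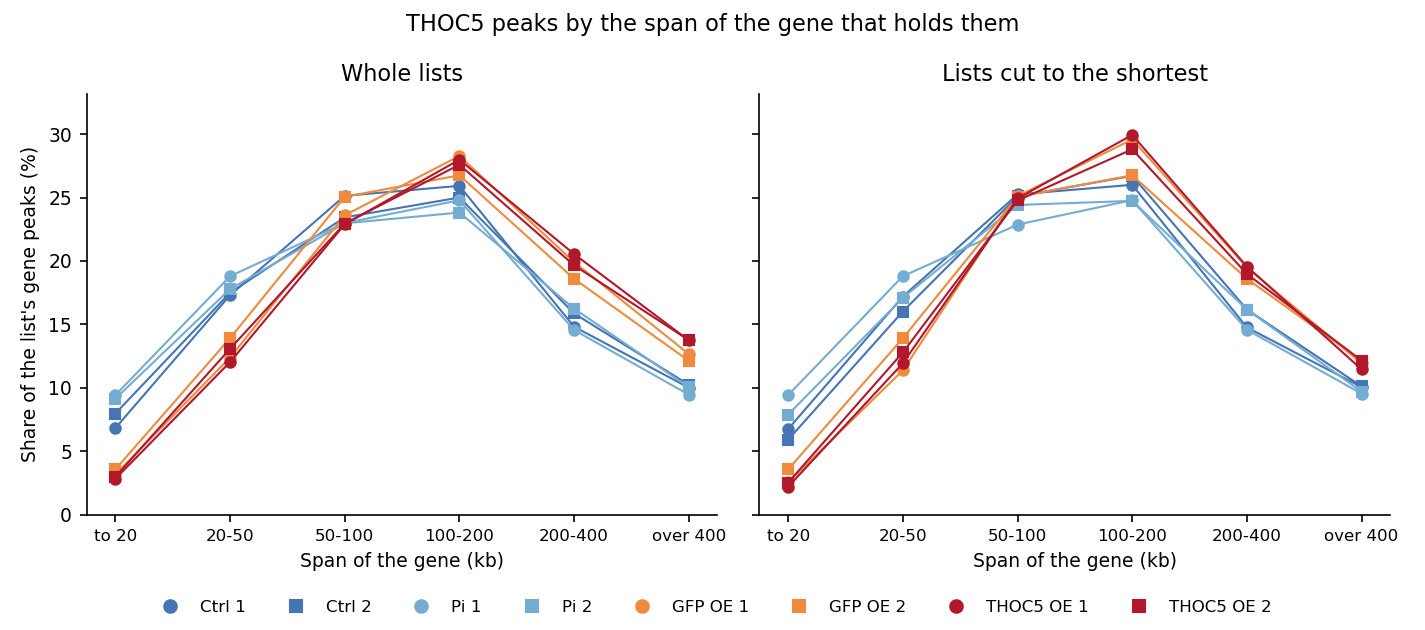
Share of a list's gene peaks (vertical axis, percent) by the span of the gene (horizontal axis, kb), 1 line per list, for whole lists and lists cut to the shortest. In genes of up to 20 kb the 4 transgene lists lie between 2.82% and 3.56% and the others between 6.82% and 9.42%, and the order is turned in genes over 100 kb.

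Functions were described through 23 gene lists, by counts beside those of all bound genes (1.83% with more peaks, 0.84% with fewer, median difference in mean peaks of -0.25). Genes of DNA replication, repair and mitosis held a larger part of the peaks in transgene-bearing cells: 2.24%, 1.37%, 1.67% and 1.57% of gene peaks in the transgene lists against 0.670%, 1.09%, 0.584% and 0.960%. Of 42 bound members, 31 had the higher mean in the transgene lists and 9 the lower, with a median difference of 0.50 peaks. Of all 4050 bound genes, 1444 had the higher mean there and 2206 the lower. The rule of non-overlapping counts was met by 3 (7.14%), all with more peaks: Pola1, the catalytic subunit of DNA polymerase alpha (6, 2, 5 and 7 peaks against 0, 1, 0 and 0), the BLM helicase gene Blm (1, 1, 2 and 2 against none) and the mismatch repair gene Msh3 (1, 1, 1 and 2 against none). Pola1, Blm and Msh3 did not meet it in the cut lists. There 3 other members met it, the cohesin gene Stag1, Parg and the helicase gene Wrn. The share of the list after the cut was 0.799% to 1.82% against 0.483% to 0.678%. The kinase genes Prkdc (15, 5, 14 and 6 peaks against 2, 10, 2 and 7) and Atr (11, 3, 5 and 7 against 2, 10, 0 and 4), which signal DNA damage, overlapped between the sides.

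Motor proteins, the kinesins, dyneins and myosins, took 3.30%, 2.75%, 2.91% and 2.70% of gene peaks in the transgene lists against 1.93%, 2.19%, 2.26% and 2.09%, and 2.31% to 2.75% against 1.89% to 2.25% after the cut. Of 38 bound members 3 had more peaks (7.89%) and 2 fewer (5.26%). Those with more were Dnah7b, the kinesin gene of endosome transport Kif16b (4, 4, 6 and 5 against 1, 2, 2 and 2) and the mitotic kinesin gene Kif20b (2, 1, 1 and 1 against none), and those with fewer were Myh10 and Kif3c (none against 1, 2, 1 and 1). Kif16b and Kif20b did not meet the rule in the cut lists, and the other 3 did. Dnah7b alone supplied 104 of the list's peaks on the transgene side and 26 on the other. By list, the members together had 119, 68, 129 and 110 peaks against 49, 102, 58 and 76. Dnah7b gave 29, 17, 31 and 27 of these against 2, 12, 3 and 9. Whether the shares stay apart without Dnah7b was not tested. The cytoplasmic dynein of intraflagellar transport, Dync2h1, carried 20, 12, 17 and 18 peaks against 7, 17, 8 and 10, which overlap.

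Cytoskeletal linkers had 1 of 20 bound members in each direction, Nav3 and Nav2, while the giant linker Syne1 carried 51, 42, 49 and 40 peaks against 35, 58, 30 and 55. In the extracellular matrix list 1 of 42 had more (Hmcn1) and 1 fewer: Col4a1, a chain of basement membrane collagen IV, had 1 intron peak in each list without a transgene and none in the others. The cut lists added Agrn, agrin, with 2 peaks in each transgene list against 1 in each of the others. Col5a1, a fibrillar collagen gene, carried 2, 1, 2 and 4 peaks against 7, 6, 3 and 5. Ubiquitin ligases and deubiquitinases took 4.04%, 3.84%, 3.61% and 3.66% of gene peaks against 5.71%, 4.53%, 4.59% and 4.25%, which do not overlap in whole lists and do in cut lists. Of 112 bound members 2 had more peaks, Trim37 and Herc6, and 1 had fewer, Fbxl18. None of these 3 met the rule in the cut lists, where Usp7 and Trim2 had more peaks and no member fewer. Ubr4, Ubr2 and Herc2 held 3 of the 35 sites absent from transgene lists.

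Splicing factors and RNA helicases had 2 of 60 with more peaks and 0 with fewer. Ddx60, an antiviral RNA helicase, carried 10, 3, 5 and 6 peaks against 0, 0, 1 and 0, and the splicing kinase Prpf4b 2 in each list against 1 in each, both also in the cut lists. The list took 0.831%, 0.728%, 0.722% and 0.786% of gene peaks against 1.30%, 0.923%, 0.856% and 0.851%, which do not overlap in whole lists and do in cut lists. Solute carriers had 0 of 60 with more and 2 with fewer: Slc20a1, the sodium-phosphate cotransporter PiT-1 through which smooth muscle cells take up phosphate, had no peak in the transgene lists and 1, 1, 1 and 2 in Ctrl 1, Ctrl 2, Pi 1 and Pi 2, and the potassium-chloride cotransporter gene Slc12a7 had none against 1, 2, 1 and 1. Both kept these patterns after the cut. Slc20a1 is also the 1 of 3 bound members of the phosphate and calcification list that met the rule.

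Among the smaller counts, 1 of 136 zinc finger genes had fewer peaks (Zfp217), 1 of 76 chromatin genes more (the histone demethylase gene Kdm4c, 3, 2, 3 and 5 peaks against 1 in each), and 1 of 63 secretory genes more (Copb1). The ribosomal and translation list had Eif4ebp3 with more (1 in each transgene list against none) and Rps26 with fewer (none against 1 in each), out of 26. Of 31 bound genes of TGF-beta, BMP, Wnt and Notch signalling, Bmp1 had more (7, 6, 7 and 6 against 5, 5, 4 and 4) and the Wnt inhibitor gene Axin1 fewer (none against 1 in each), and of 22 adhesion genes Cdh26 had more. Of the genes named in these counts, Kdm4c, Copb1, Axin1 and Cdh26 did not meet the rule in the cut lists, and Zfp217, Eif4ebp3, Rps26 and Bmp1 did. No bound member met the rule in either direction among 23 genes of mRNA export and the nuclear pore, 21 of mRNA decay and 21 ion channel genes. The same held for 28 genes of the interferon and antiviral list, which holds neither Ddx60 nor Herc6. It also held for 7 contractile genes, 2 osteochondrogenic genes and the 3 lists of markers of other cells. The contractile list took 0.222%, 0.283%, 0.271% and 0.270% of gene peaks against 0.315%, 0.322%, 0.389% and 0.302%, and these overlapped after the cut. In the export list Thoc2 lay just outside the rule, with 7, 4, 4 and 5 peaks against 4, 3, 1 and 2. Mylk, the myosin light chain kinase gene of contraction, carried 8, 5, 11 and 9 against 6, 11, 7 and 7, and Acta2, smooth muscle actin, none against 1, 1, 0 and 1.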

How the data were processed

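Peak lists of 8 THOC5 RIP-seq samples were used. RNA came from a Magna RIP kit and was depleted of rRNA, per the labels' protocols. The submitters' processing notes name Bowtie2, MACS2, SAMtools, FastQC and mm10 without roles. HOMER's annotatePeaks.pl annotated the peaks, per the file headers. No label or header names the caller or says how inputs were used. Each peak carries a score that the authors deposited, on a scale that no source used here states; it ordered peaks within a list, and only its lowest value, its step and a common floor were set across lists. Each list has 1 peak width (415 to 553 bases) and no usable strand. Read depth is unknown, so no interval from counting was given; the score steps (scores under 60 being whole multiples within 0.005 or 0.05) are given in its place.

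Peaks sharing at least 1 base were merged. A gene was the RefSeq transcript in the annotation, matched to GRCm38.p6 for 28581 of 28614 peaks (99.9%), and was bound where a peak lay in its exons, introns, UTRs or end. Sites and genes that set the sides apart were counted without a test. The 11 measures of a list were compared by two-sided exact permutation with Benjamini-Hochberg adjustment at 0.05, using Python 3.11.15, NumPy 2.4.6, pandas 2.3.3 and SciPy 1.17.1, tested on simulated data. Members and gene lists were chosen with earlier results of these data known. Named are Thoc5, the 10 leading sites and 10 leading genes per direction (predicted genes passed over), called members of gene lists (at most 6 per list and direction), up to 4 members per list by mean peaks, and Hmcn1, Csmd1, Ext1 and Rusc2. Genes at CpG islands of first introns, Fam214a and genes whose promoter window a one-sided site covers, Dysf among them, were chosen after their values were seen. So were Ubr2, Agrn, Stag1, Wrn, Usp7, Trim2 and genes in which a site named for another gene lies. Alternatives were cut lists, scores from each list's median up, a common score floor, sites by peak centres within 150 bases, at least 3 of 4 lists, the authors' nearest gene, exons or introns alone, osteogenic medium alone, 1 transgene at a time, no rRNA repeats, leaving out each list, and a replicate block. The numbers of the replicates did not pair the lists.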

Additional observations from a re-analysis of the deposited data

Results flagged for a closer look

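GFP OE 1 stood apart from the other transgene lists in the share of gene peaks in intron 1. It was 4.38% there and 7.06% to 7.56% in the other 3 transgene lists, a gap beyond the 95% limit of Dixon's test for 4 values. The lists without a transgene lay between 2.80% and 5.21%. Over 11 measures on each side 22 such sets were examined, and chance flags about 1 in 20. The share of peaks on CpG islands was also lowest in this list, at 2.64% against 4.01% to 4.78% in the other transgene lists.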

How the results depend on the processing

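Lists cut to 2572 peaks gave 63 sites and 39 genes in the transgene direction, a common score floor of 29, chosen after seeing the data, 61 and 29, and scores from each list's median up 43 genes, with 21 sites and 19 genes in the other direction. Without peaks on rRNA repeats there were 108 and 35 sites and 74 and 34 genes, as before. Sites in at least 3 of 4 lists numbered 449 and 220. Osteogenic medium alone gave 232 and 201 sites and 166 and 144 genes. With GFP OE alone there were 224 and 65 sites and 78 genes with fewer peaks, and with THOC5 OE alone 714 and 55 sites and 325 genes with more. Peaks of exons and UTRs alone gave 28 and 13 genes, and intron peaks alone 17 with fewer. Leaving out 1 list gave 123 to 252 transgene sites, 36 to 123 others, 78 to 161 genes with more and 37 to 83 with fewer. Transgene sites came to 182 without Ctrl 2, 236 without GFP OE 1 and 252 without GFP OE 2, and genes with more peaks to 132, 112 and 161. Sites of the other direction came to 74 without Ctrl 1, 66 without Ctrl 2, 123 without Pi 1, 57 without Pi 2 and 53 without GFP OE 1, and genes with fewer peaks to 66 without Ctrl 1, 83 without Pi 1 and 52 without Pi 2. A rule asked of fewer lists is easier to meet.

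Of 226 values under alternatives, 12 changed sign, all in measures that did not separate the sides (exact permutation p of 0.486 to 0.943 in whole lists). The intergenic difference became -0.165 points in cut lists, -0.288 above the median score, -0.271 at the floor and -0.223 in osteogenic medium, that of promoters -0.0284 above the median score and -0.0199 at the floor, and that of repeats among intron peaks -0.169, -0.112, and -1.33 in osteogenic medium. Leaving out 1 list, the last ran from -0.700 to 1.16, below 0 without Ctrl 2, GFP OE 2 (-0.612) or THOC5 OE 2 (-0.0791). The cause was not tested. Over the same omissions the median span differed by 17943 to 20481 bases, the share in genes over 200 kb by 6.61 to 7.74 points, that of the last exon by -3.36 to -2.78, and that of introns by 4.60 to 6.42. The numbers of the replicates were no pairing: deviations of like-numbered lists correlated from -0.405 to 0.366 between conditions, and a replicate block left the intron difference at 5.37 points with an exact permutation p of 0.111 (adjusted 0.153, smallest p 0.0556) and put no measure past the threshold. Of the 108 transgene sites, 63 had a lowest percentile under 25.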
